A study of Mus musculus with 38 samples.

Results

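The peaks described here were the 5669 regions that the submitters' annotation placed in exons, of 315025 peaks in 8 lists of RUNX1, CTCF, Med12 and p300 binding in LP and Phase 1 cells. Members were taken by the annotation alone: each peak whose annotation began with "exon" was kept, whatever its score, stage or partner. HOMER, the program that made this annotation, gives a promoter or a transcript end precedence over an exon and lists untranslated regions apart, so these peaks were in coding exons outside the promoter and transcript-end windows of the annotation. The transcript accession in the annotation gave a RefSeq gene for 5665 of the 5669 members.

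The cells were Cas9-LP, a mouse lymphoid progenitor line from fetal liver that lacked Ebf1, a factor needed for the B lineage, and carried Cas9 at Rosa26. LP cells were cultured on OP9 stroma with SCF, Flt3L and IL-7, and Phase 1 cells on OP9-DLL4, stroma that presents the Notch ligand DLL4. The cells were fixed with disuccinimidyl glutarate, which links proteins to each other, and with formaldehyde, so a peak can come from a protein bound through another one. The 16 ChIP samples of these 8 groups were 2 replicates for each factor and stage, and each list held the peaks kept after both replicates had been compared. No value per replicate was used, so every interval and p-value below covers counting error over peaks and not the spread between cultures. Neither Ebf1 nor Cas9 differed between the groups, and no group without them was included. The peak score is given as deposited and was ranked within a list. The exception was an alternative setting that left peaks of score under 30 out of every list, although the scale is not known. Coordinates are in mm10.

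RUNX1 is the DNA-binding subunit of a complex with Cbfb that both activates and represses lymphoid genes. CTCF is a zinc-finger protein that binds a long motif and, with cohesin, sets the borders of chromatin loops. Med12 belongs to the kinase module of Mediator, which links transcription factors to RNA polymerase II, and p300 is a histone acetyltransferase found at active enhancers and promoters. A coding exon has to hold its codons and any binding sequence in the same bases, and coding exons are as a rule richer in G and C than introns.

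Sequences of stage-specific RUNX1 exon peaks are shown first, as examples of the strings counted further on, most such peaks being without them. The strings searched were a CTCF consensus of 12 bases and a RUNX string, TGTGGTT or TGCGGTT, on both strands of the 200 bp around each peak centre. Below are the 5 highest-scored LP-specific RUNX1 exon peaks that overlapped an LP CTCF peak and held the CTCF consensus and whose printed bases lay in 1 coding exon. Capitals mark the consensus, and each sequence reads 5′ to 3′ on the strand where the consensus reads forward.
Flot1, exon 9 of 13, chr17:35829885-35829936, plus strand: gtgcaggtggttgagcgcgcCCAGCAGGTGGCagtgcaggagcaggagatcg
Pgap6, exon 10 of 13, chr17:26120313-26120364, plus strand: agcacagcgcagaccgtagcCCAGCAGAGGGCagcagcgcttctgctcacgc
Smarcd3, exon 2 of 13, chr5:24598740-24598791, minus strand: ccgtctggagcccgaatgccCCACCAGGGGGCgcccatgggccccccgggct
Pdia4, exon 8 of 10, chr6:47799208-47799259, plus strand: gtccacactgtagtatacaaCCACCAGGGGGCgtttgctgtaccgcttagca
Tpbgl, exon 1 of 1, chr7:99625884-99625935, plus strand: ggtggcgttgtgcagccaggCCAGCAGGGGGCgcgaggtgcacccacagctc
In Flot1, Pgap6 and Smarcd3 the consensus read along the coding strand, and in Pdia4 and Tpbgl it read against it.

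Exon peaks with LP-specific RUNX1 but without the exact consensus could still hold a near match. How often a near match occurs away from peaks was not counted, so such matches are shown as sequence only. The 2 examples below are the closest matches in the CTCF peaks at Notch3, which encodes a Notch receptor, and at Ccr10, which encodes a chemokine receptor. The Ccr10 match had 1 mismatch and the Notch3 match had 2, and capitals again mark the matched bases.
Ccr10, exon 2 of 2, chr11:101173965-101174016, minus strand: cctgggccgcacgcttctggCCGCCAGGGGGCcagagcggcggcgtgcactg
Notch3, exon 24 of 33, chr17:32143349-32143400, plus strand: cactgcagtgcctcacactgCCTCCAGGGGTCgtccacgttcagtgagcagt

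For contrast, these are the 5 highest-scored Phase 1-specific RUNX1 exon peaks without Phase 1 CTCF that held the RUNX string, chosen by the same rule on position and with the string in capitals.
Prss16, exon 8 of 12, chr13:22006003-22006049, plus strand: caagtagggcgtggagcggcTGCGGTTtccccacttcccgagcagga
Dop1b, exon 4 of 36, chr16:93747471-93747517, plus strand: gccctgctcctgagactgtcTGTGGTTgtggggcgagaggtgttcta
Igfbp6, exon 2 of 4, chr15:102147881-102147927, minus strand: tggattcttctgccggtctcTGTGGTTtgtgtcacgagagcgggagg
Muc20, exon 2 of 4, chr16:32793366-32793412, plus strand: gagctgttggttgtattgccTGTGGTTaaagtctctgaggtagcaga
Rps27l, exon 3 of 5, chr9:66947607-66947653, plus strand: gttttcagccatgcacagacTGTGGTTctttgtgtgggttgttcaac
Prss16 encodes a serine protease known from the thymic cortex. In Prss16, Igfbp6 and Muc20 the string lay on the strand opposite to the coding one.

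CTCF had the most exon peaks. The LP CTCF list held 977 and the Phase 1 CTCF list 905, against 600 and 569 for RUNX1, 593 and 593 for Med12, and 726 and 706 for p300. These were small shares of the lists, between 1.44% for Phase 1 p300 and 2.15% for LP CTCF. Coding sequence made up 1.32% of the genome. Per megabase of coding sequence there were 27.1 exon peaks in the LP CTCF list, beside 17.6 intron peaks per megabase of intron, and 16.7 beside 9.91 in the LP RUNX1 list. In Phase 1 the values were nearer each other for RUNX1 (15.8 beside 12.6), Med12 (16.5 beside 13.0) and p300 (19.6 beside 17.2). For Phase 1 CTCF they were 25.1 beside 17.6. The exon counts of the 2 stages were close, although the Phase 1 lists of RUNX1, Med12 and p300 were longer. The Med12 lists grew from 30020 peaks in LP to 39132 in Phase 1 with the same 593 exon peaks in each, and the p300 lists grew from 36182 to 49116 while exon peaks went from 726 to 706.

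**Figure D1:**
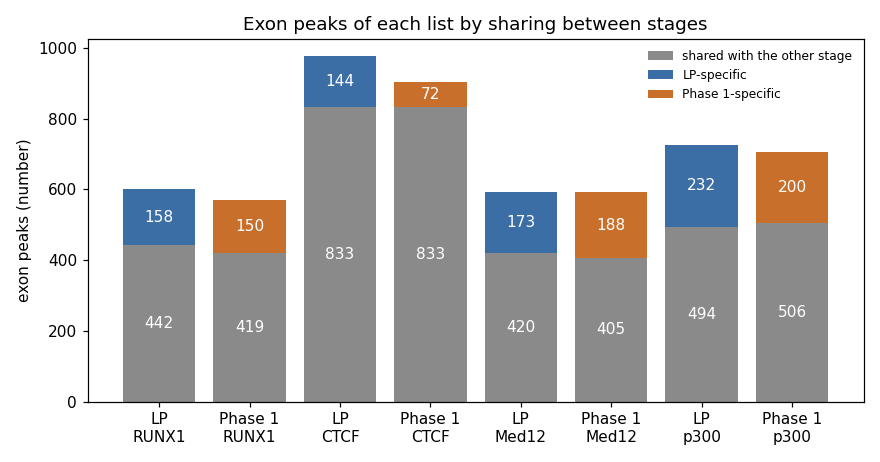
Number of exon peaks in each of the 8 lists, split into those that overlapped a peak of the same factor in the other stage (grey) and those that did not (blue for LP, orange for Phase 1). The LP-specific and Phase 1-specific counts lay close together for RUNX1 (158 and 150), while CTCF had 144 in LP and 72 in Phase 1.

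Exon peaks sat near the start of genes more often than their neighbours in introns and intergenic DNA. Between 21.9% (Phase 1 CTCF) and 29.3% (LP Med12) were under 1 kb from the nearest start, against 1.97% to 2.36% of intron and intergenic peaks, and between 19.8% and 27.7% were in the first exon. Internal exons held 53.5% to 62.7% of the members. The median GC content of the 200 bp around the centre was 58.0% to 61.0% for exon peaks and 46.5% to 50.5% for intron and intergenic peaks, and the ratio of observed to expected CpG was 0.44 to 0.56 against 0.20 to 0.23. A peak was wider than most exons: the median member had between 48.5% and 58.4% of its length in coding sequence. In the GENCODE M21 annotation, 86.1% to 91.9% of the members again had their centre in a coding exon, and 51 to 71 in each list were in promoters of transcripts that HOMER had not used.

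Whether exon peaks held across the stages was asked for each factor by overlap of at least 1 bp with any peak of that factor in the other stage. Peaks without such a partner are called LP-specific or Phase 1-specific. In LP, exon peaks were shared less often than peaks in introns and intergenic DNA, for all 4 factors. Of 600 LP RUNX1 exon peaks, 442 were shared (73.7%, 95% Wilson interval 70.0% to 77.0%), against 79.0% of 21014 intron and intergenic peaks (odds ratio 0.74, 95% interval 0.62 to 0.89, Fisher's exact test, adjusted p = 0.0035). The LP-specific share of the exon peaks, 26.3%, stood beside 16.8% over LP RUNX1 peaks of any annotation, a figure that includes the promoter peaks, of which 94.3% were shared. For LP CTCF, 85.3% of exon peaks and 91.1% of the others were shared (odds ratio 0.56, exact test, adjusted p = 1.34e-08), and 14.7% of exon peaks were LP-specific against 9.55% over the list. For LP Med12 the shares were 70.8% and 76.3% (odds ratio 0.76, exact test, adjusted p = 0.0045), with 29.2% of exon peaks LP-specific against 19.5% over the list. For LP p300 they were 68.0% and 75.1% (odds ratio 0.71, exact test, adjusted p = 6.74e-05), with 32.0% LP-specific against 20.7% over the list. With peaks of score under 30 left out of every list, the LP RUNX1 and LP Med12 differences no longer passed the exact test (adjusted p = 0.64 and 0.066), and with lists of equal length the LP RUNX1 difference did not (adjusted p = 0.19). For RUNX1, Med12 and p300 the low share in LP was not particular to exons. Peaks at transcript ends and in 3′ untranslated regions were shared at 72.3% and 73.1% for LP RUNX1. The same values were 67.5% and 69.9% for LP Med12, and 69.3% and 70.0% for LP p300. For LP CTCF they were higher than in exons, at 93.0% and 93.8%. LP CTCF peaks at promoters and in 5′ untranslated regions were shared less often than exon peaks, at 84.6% and 75.8%. For LP RUNX1, Med12 and p300 those latter classes were shared more often than exon peaks.

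In Phase 1 the direction was the opposite for RUNX1, Med12 and p300. These tests count the same overlaps as those in LP from the other side, so they are not independent of them. For RUNX1 the exon share was 73.7% in LP and 73.6% in Phase 1, while the intron and intergenic share was 79.0% and 61.3%. Of 569 Phase 1 RUNX1 exon peaks, 419 were shared with LP (73.6%, 69.9% to 77.1%), against 61.3% of 27153 intron and intergenic peaks (odds ratio 1.77, exact test, adjusted p = 3.62e-09). Phase 1-specific peaks made up 26.4% of the exon peaks and 30.7% of the whole list. For Phase 1 Med12 the shared portion was 68.3% in exons and 52.2% elsewhere (odds ratio 1.97, exact test, adjusted p = 2.52e-14), and 31.7% of exon peaks were Phase 1-specific against 38.2% over the list. The gap was widest for p300, with 71.7% shared in exons and 49.8% elsewhere (odds ratio 2.55, exact test, adjusted p = 2.27e-30), and 28.3% of exon peaks Phase 1-specific against 41.6% over the list. Phase 1 CTCF was the exception: 92.0% of exon peaks and 91.9% of the others were shared (odds ratio 1.02, 95% interval 0.80 to 1.30, exact test, adjusted p = 1), and 7.96% of exon peaks were Phase 1-specific against 8.35% over the list. Matched on GC content, the odds ratios were smaller, at 1.28 for RUNX1, 1.39 for Med12 and 1.80 for p300. Without peaks under 1 kb from a start they were 1.45, 1.58 and 1.98. All of these still passed their tests. The higher share was not particular to exons. Promoter peaks and peaks in 5′ untranslated regions were shared more often still, at 92.5% and 87.3% for Phase 1 RUNX1. The same values were 91.1% and 87.1% for Phase 1 Med12, and 90.4% and 88.8% for Phase 1 p300. Peaks at transcript ends and in 3′ untranslated regions were shared less often than exon peaks for these factors.

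**Figure D2:**
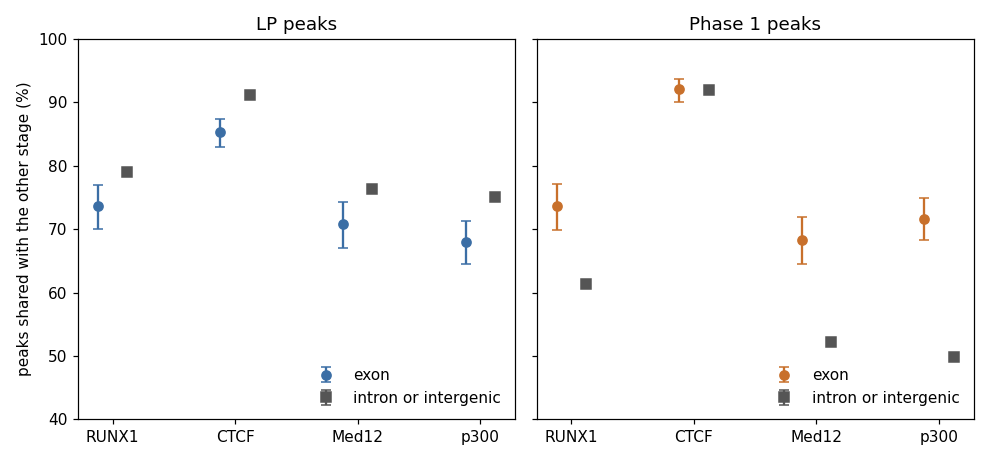
Share of LP peaks (left) and Phase 1 peaks (right) that overlapped a peak of the same factor in the other stage, for exon peaks (circles) and intron or intergenic peaks (squares), with 95% Wilson intervals. Exon points lie under the others for all 4 LP lists and above them for Phase 1 RUNX1, Med12 and p300, and the Phase 1 CTCF points, at 92.0% and 91.9%, coincide.

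The same counts can be read as the balance of LP-specific and Phase 1-specific peaks, which was looked at after the sharing values were known and is built from them. It is therefore given as a description, and its p-values are not reported. Among stage-specific RUNX1 exon peaks, 158 of 308 were of the LP stage (51.3%), against 4412 of 14926 in introns and intergenic DNA (29.6%). For Med12 the LP portion was 47.9% in exons and 25.4% elsewhere, for p300 it was 53.7% and 24.7%, and for CTCF 66.7% and 52.4%. GC content also differed between the stages. The median GC content was 59.5% in LP-specific and 54.8% in Phase 1-specific RUNX1 exon peaks, and 60.5% and 52.5% for p300. Matched on GC content, the odds ratio of the balance went from 1.82 to 1.31 for CTCF and from 2.51 to 2.02 for RUNX1. It went from 2.71 to 1.99 for Med12 and from 3.53 to 2.47 for p300. The part of GC content in the balance was not tested.

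Most stage-specific exon peaks were far from any peak of the same factor in the other stage. The median gap was between 5.09 kb (LP p300) and 11.9 kb (Phase 1 p300), and between 4.5% and 9.05% of them lay within 500 bp of one. Shared pairs overlapped by a median of 311 to 401 bp, and only 1 to 7 shared members in each list had an overlap under 100 bp. A few peaks did sit at the border. In Crlf2, which encodes a cytokine receptor chain, p300 had an LP-specific peak in exon 3 (chr5:109556946-109557274, score 243.4) and a Phase 1-specific peak in exon 2 (chr5:109557416-109557754, score 278.9), on neighbouring exons. Annotation could also change with small shifts of the summit: of the shared exon peaks, 74.3% (LP Med12) to 91.6% (both CTCF lists) had a partner that was itself annotated as exon.

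Few exon peaks were near the top of the lists, and those of CTCF came closest. The best-scored member of each list held place 7 (Phase 1 CTCF), 12 (LP CTCF), 132 (LP p300), 155 (Phase 1 p300), 167 (Phase 1 Med12), 398 (LP RUNX1), 515 (LP Med12) and 529 (Phase 1 RUNX1). The median score rank, as a percentile of the list with the highest score at the top, was between 42.2 (LP Med12) and 48.4 (Phase 1 CTCF). For RUNX1, Med12 and p300 this was 3 to 5 percentile points above intron and intergenic peaks in each list, and for LP CTCF it was below them (46.2 against 49.0). Between 2.87% (Phase 1 Med12) and 7.62% (Phase 1 CTCF) of members were in the top 10% of their list.

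Sharing followed score. Shared exon peaks had a median rank percentile between 52.0 and 55.8, and stage-specific ones between 12.8 (LP CTCF) and 22.8 (Phase 1 p300). Each list was split by score into 5 classes of equal size. In the lowest class, 33.6% of LP RUNX1 exon peaks were shared (25.8% to 42.4%) against 55.8% of intron and intergenic peaks of that class (54.5% to 57.1%), and in the highest class the values were 98.6% and 98.1%. In the Phase 1 p300 list the lowest class gave 43.2% in exons (35.5% to 51.3%) against 24.7% elsewhere (23.8% to 25.6%), and the highest 95.4% against 86.7%. The LP RUNX1 gap was widest in the lowest-scored class, while the exon share of Phase 1 p300 was the higher one in all 5 classes. Position in the gene moved with sharing as well. Of Phase 1 p300 peaks in first exons 87.2% were shared (95% interval 81.2% to 91.5%), against 65.3% in internal exons (60.5% to 69.7%). CTCF in LP had the reverse order, with 76.9% in first exons (70.7% to 82.1%) and 88.4% in internal ones (85.5% to 90.7%).

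**Figure D3:**
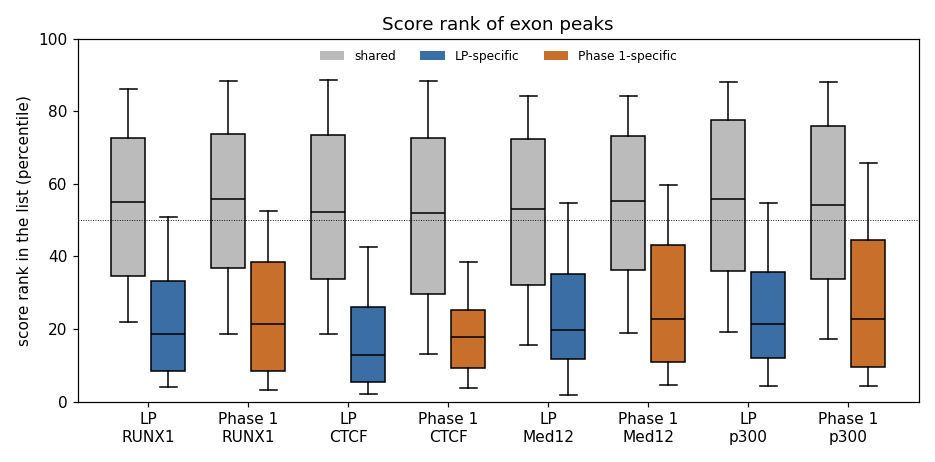
Score rank of exon peaks within their own list, as a percentile (vertical axis), for shared (grey) and stage-specific members (blue for LP, orange for Phase 1). Boxes span the quartiles with the median as a line, whiskers reach the 10th and 90th percentiles, and the dotted line is the median of the whole list. The medians of the stage-specific members lie between 12.8 and 22.8 and those of the shared members above 50.

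CTCF was more frequent at LP-specific than at Phase 1-specific RUNX1 exon peaks, though most of the LP-specific ones had no LP CTCF peak. An LP CTCF peak overlapped 69 of 158 LP-specific RUNX1 exon peaks (43.7%, 95% Wilson interval 36.2% to 51.5%), and a Phase 1 CTCF peak overlapped 9 of 150 Phase 1-specific ones (6.0%, 3.19% to 11%). The odds ratio was 12.1 (95% interval 5.77 to 25.5, Fisher's exact test, adjusted p = 2.16e-14), and it lay between 9.26 and 27.8 in all 7 alternatives run. Over stage-specific RUNX1 peaks of any annotation the shares were 36.8% in LP and 6.96% in Phase 1, so the same contrast was present outside exons. Shared RUNX1 exon peaks lay between, with CTCF of the same stage at 29.2% in LP and 27.4% in Phase 1.

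The exon share in LP was not shown to stand apart from the rest. Among LP-specific RUNX1 peaks in introns and intergenic DNA, 1584 of 4412 had CTCF (35.9%, odds ratio of exon against these 1.38, 95% interval 1.00 to 1.91, exact test, adjusted p = 0.076). The 2 parts of that group differed, with 31.7% in introns and 40.7% in intergenic DNA. Against introns alone the exon share was higher (odds ratio 1.67, exact test, adjusted p = 0.0041), as it was with lists of equal length (odds ratio 1.5, adjusted p = 0.014) and with a minimum score of 30 (odds ratio 2.69, adjusted p = 8.76e-05). In Phase 1 the shares were 6.0% in exons and 6.32% elsewhere (odds ratio 0.95, 95% interval 0.48 to 1.86, exact test, adjusted p = 1). The contrast between stages was not shown to differ between exons and the rest, with a ratio of the 2 odds ratios of 1.46 (95% interval 0.69 to 3.10, adjusted p = 0.36 by Woolf's chi-square test). A minimum score of 30 gave 3.47 (adjusted p = 0.040 by the same chi-square test), and counting centres within 100 bp turned the direction (0.66).

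**Figure D4:**
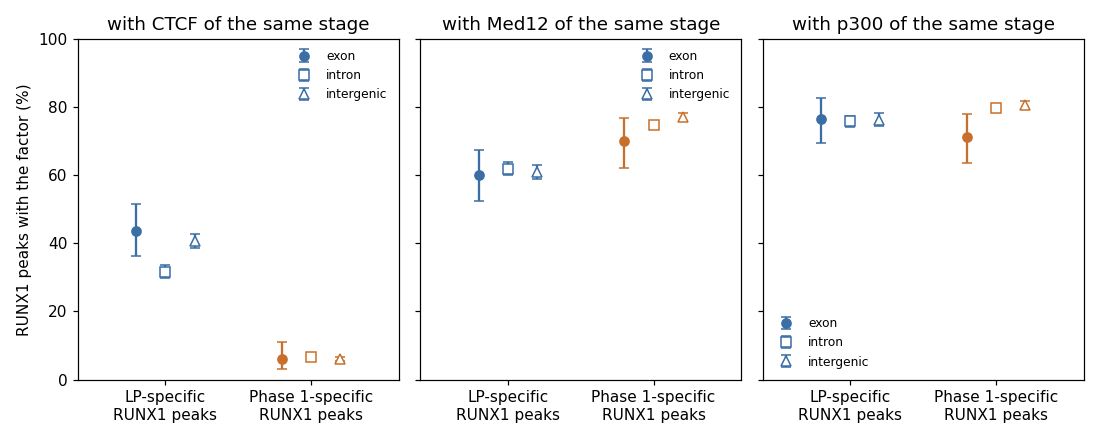
Share of LP-specific (blue) and Phase 1-specific (orange) RUNX1 peaks that overlapped a CTCF, Med12 or p300 peak of the same stage, for exon (filled circles), intron (squares) and intergenic peaks (triangles), with 95% Wilson intervals. CTCF was at 43.7% of LP-specific and 6.0% of Phase 1-specific exon peaks, while the exon values for Med12 and p300 lay between 60.1% and 76.6%.

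CTCF itself was mostly present at these exons in both stages. Of the 69 LP-specific RUNX1 exon peaks with LP CTCF, 61 also overlapped a Phase 1 CTCF peak, although RUNX1 had no Phase 1 peak there. Of the 1584 intron and intergenic counterparts 1509 did so. The CTCF peaks at the exons had a median at percentile 77.7 of the LP CTCF list, under the 89.8 of those counterparts, while the RUNX1 peaks had a median at percentile 20.7 of theirs. The centres of the RUNX1 and CTCF peaks were a median of 59 bp apart, and 44 of the 69 CTCF peaks were also annotated as exon. The 9 Phase 1-specific RUNX1 exon peaks with CTCF had lower-ranked partners, at a median percentile of 29.0, and 6 of them overlapped an LP CTCF peak. The exact CTCF consensus was present in 7 of the 69, in 0 of the 89 LP-specific ones without CTCF and in 0 of the 150 Phase 1-specific ones. A count of 0 of 89 allows a share of up to 3.37%, and 0 of 150 one of up to 2%. The RUNX string was present in 17 of 158 LP-specific exon peaks (10.8%) and in 45 of 150 Phase 1-specific ones (30.0%), and in 14.9% and 31.3% of the corresponding intron and intergenic peaks. These string counts are given as a description.

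The highest-scored LP-specific RUNX1 exon peaks with CTCF were in H1f2, Inafm1, Trim11, Ccr10 and Rasa4. At Trim11 (exon 3 of 7, chr11:58981913-58982253), which encodes a ubiquitin ligase, RUNX1 scored 96.5 in LP and CTCF was listed in both stages, with no Med12 or p300 peak in either, although a Phase 1 Med12 list from cells with a control guide RNA had a peak there (42.5). At Ccr10 (exon 2 of 2, chr11:101173721-101174061) RUNX1 scored 75.6 in LP, CTCF was again listed in both stages, and p300 was listed in LP alone. H1f2 (chr13:23738745-23739085, score 147.3) encodes a linker histone from a family of similar genes, and the authors' alignment kept reads with several genomic positions, so its peaks cannot be assigned to 1 copy with certainty. Inafm1 (chr7:16272807-16273147, score 97.4) is a gene of 1 exon with the peak 715 bp from its start. At Rasa4 (exon 13 of 21, chr5:136102194-136102534, score 64.2), which encodes a GTPase-activating protein for Ras, CTCF, Med12 and p300 were listed in both stages and RUNX1 in LP alone.

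Without CTCF, the leading LP-specific RUNX1 exon peaks were in Etv5, Tor4a, Tbrg4, Ky and Wdr81. Etv5 (exon 3 of 13, chr16:22436068-22436408, score 91.0) encodes an ETS-family transcription factor, and there Med12 was listed in both stages and p300 in LP alone. At Tor4a, Ky and Wdr81 both Med12 and p300 were listed in LP and neither in Phase 1, as for RUNX1. Tbrg4 (chr11:6623776-6624116, score 79.4) had p300 but no Med12 in LP. The RUNX string was present at Ky and Wdr81.

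Phase 1-specific RUNX1 exon peaks with CTCF were low in the list. The leading ones were in Lactbl1 (score 37.5), Tmem39a (37.2), Mdc1 (19.3), Hmcn2 (17.1) and Shisal2a (17.1), where the lowest score in any list was 15. At Hmcn2 and Shisal2a CTCF was listed in both stages, and at the other 3 in Phase 1 alone. Those without CTCF scored higher and were in Pfn4 (126.2), Dhx34 (109.3), Prss16 (96.7), Iqgap1 (91.1) and Fabp4 (67.5). Med12 was listed at all 5 in Phase 1 and at none in LP. Phase 1 p300 was listed at Pfn4, Iqgap1 and Fabp4, which also had LP p300 peaks of 18.9, 26.4 and 21.8, and not at Dhx34 or Prss16. Iqgap1 (exon 24 of 38, chr7:80736251-80736579) encodes a scaffold protein of the actin cytoskeleton, and Fabp4 (chr3:10205114-10205442) a fatty acid-binding protein.

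Med12 and p300 were common at stage-specific RUNX1 exon peaks in both stages. LP Med12 overlapped 95 of the 158 LP-specific ones (60.1%, 52.3% to 67.4%), beside 61.9% over LP-specific RUNX1 peaks of any annotation, and Phase 1 Med12 overlapped 105 of the 150 Phase 1-specific ones (70.0%, 62.2% to 76.8%), beside 75% over any annotation. The stages were not shown to differ (odds ratio 0.65, 95% interval 0.40 to 1.04, exact test, adjusted p = 0.099), while with GENCODE exons the difference passed (odds ratio 0.57, adjusted p = 0.034) and with lists of equal length the direction turned (odds ratio 1.22). LP p300 overlapped 121 of 158 (76.6%, 69.4% to 82.5%), beside 76% over any annotation, and Phase 1 p300 overlapped 107 of 150 (71.3%, 63.6% to 78.0%), beside 79.6%. That difference did not pass the test either (odds ratio 1.31, 95% interval 0.79 to 2.19, exact test, adjusted p = 0.36), while a minimum score of 30 and lists of equal length gave 3.23 (adjusted p = 0.0031) and 2.67 (adjusted p = 9.31e-04).

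Coactivator peaks of the other stage were also listed at some of these exons, given here without a test. Phase 1 Med12 overlapped 16 of the 158 LP-specific RUNX1 exon peaks (10.1%) and LP Med12 overlapped 20 of the 150 Phase 1-specific ones (13.3%). Phase 1 p300 overlapped 36 (22.8%) of the former and LP p300 40 (26.7%) of the latter. In intron and intergenic RUNX1 peaks the same shares were 14.5% and 7.54% for Med12 and 26.3% and 18.1% for p300, so the exon share was the lower one at LP-specific and the higher one at Phase 1-specific peaks. Among LP-specific RUNX1 exon peaks, Med12 was listed at 45 of 69 with CTCF (65.2%) and at 50 of 89 without it (56.2%), and p300 at 49 (71.0%) and 72 (80.9%). In intron and intergenic LP-specific RUNX1 peaks the shares with and without CTCF were 58.1% and 63.3% for Med12. They were 71.8% and 78.4% for p300. The order for Med12 was thus the reverse of that in exons, and the order for p300 the same. Both coactivators were listed at 83 of the 158 LP-specific and at 90 of the 150 Phase 1-specific members, and neither at 25 and 28. In introns and intergenic DNA both were listed at 2470 of 4412 and 7259 of 10514, and neither at 816 and 1366.

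CTCF was also listed more at LP-specific than at Phase 1-specific exon peaks of the coactivators themselves, given here as counts without a test. LP CTCF overlapped 66 of 173 LP-specific Med12 exon peaks (38.2%), and Phase 1 CTCF overlapped 8.51% of the Phase 1-specific ones. For p300 the counts were 69 of 232 (29.7%) and 21 of 200 (10.5%). Intron and intergenic peaks had the same order, with 32.1% and 5.79% for Med12 and 26.0% and 6.45% for p300. Among shared exon peaks of RUNX1 the share with CTCF of the same stage was 29.2% in LP and 27.4% in Phase 1.

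Over all RUNX1 exon peaks, CTCF was listed at 33.0% in LP and 21.8% in Phase 1, against 19.7% and 11.7% of intron and intergenic RUNX1 peaks. From the side of CTCF, 24.6% of LP CTCF exon peaks had RUNX1 and 69.0% had none of the other 3 factors, against 11.1% and 84.7% of intron and intergenic CTCF peaks. These values mix score, distance to the start and base composition, whose part in them was not tested. CTCF was listed at 40.8% of LP RUNX1 peaks in first exons, 27.3% in internal exons and 38.5% in the last of several exons.

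Merging overlapping exon peaks of the 8 lists gave 2299 sites. The largest class, 613 sites (26.7%), had CTCF in both stages and no other factor. The next, 353 sites (15.4%), had RUNX1, Med12 and p300 in both stages and no CTCF, and 215 sites (9.35%) had all 4 factors in both. Stage-restricted combinations were much smaller: 66 sites had Phase 1 RUNX1, Med12 and p300 with no other list, and 39 had the LP counterpart. A further 25 sites had LP RUNX1, Med12 and p300 with CTCF in both stages, the combination seen at Notch3. CTCF was present at 1307 sites, 743 of them without another factor. A single list accounted for 333 sites.

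**Figure D5:**
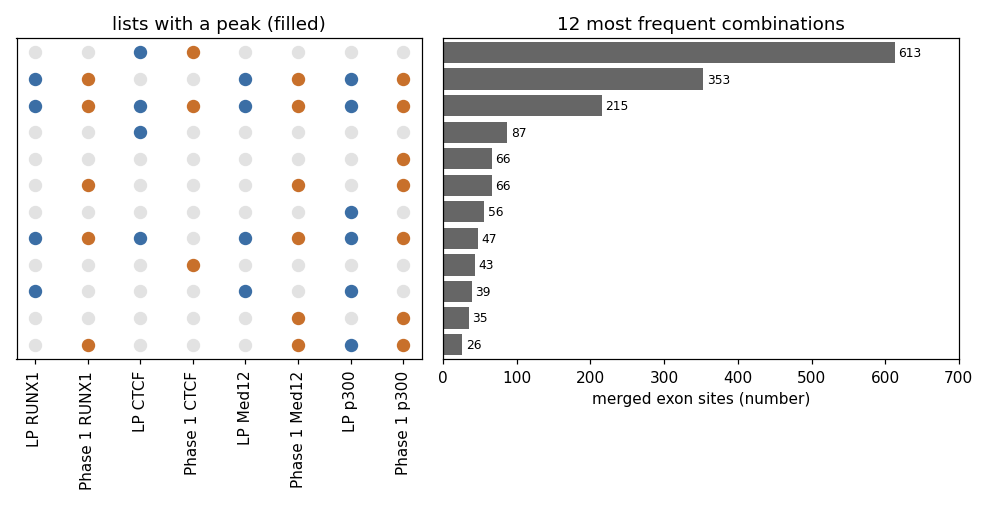
The 12 most frequent combinations of lists at merged exon sites. Each row of dots on the left marks the lists with a peak (blue for LP, orange for Phase 1, grey for none), and the bar on the right gives the number of sites. CTCF alone in both stages led with 613, followed by RUNX1, Med12 and p300 in both stages without CTCF at 353.

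The exact CTCF consensus was less frequent in exon than in other CTCF peaks. It was present in 124 of 977 LP CTCF exon peaks (12.7%, 10.7% to 14.9%) and in 17.6% of 38450 intron and intergenic peaks with sequence (odds ratio 0.68, exact test, adjusted p = 9.65e-05), beside 16.6% over all LP CTCF peaks. In windows of the same length 2 kb to either side it was present in 0.10% of cases in exons and 0.19% elsewhere. Allowing 1 mismatch gave 42.8% and 66.8%. The difference did not pass the exact test without peaks under 1 kb from a start (odds ratio 0.80, adjusted p = 0.054). Matched on distance to the start it did not pass a Mantel-Haenszel chi-square test (odds ratio 0.83, adjusted p = 0.092). Of 127 consensus matches in LP CTCF exon peaks, 115 lay wholly in coding sequence, 52 along the coding strand and 63 against it. The highest-scored LP CTCF exon peaks with the consensus in a wholly coding window were in Pgls (score 334.6), Mus81 (330.6), Kif19a (328.0) and Flot1 (300.3), and the Flot1 window is the one printed above.
Pgls, exon 5 of 5, chr8:71596097-71596148, minus strand: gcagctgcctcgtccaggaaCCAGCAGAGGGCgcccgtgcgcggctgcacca
Mus81, exon 1 of 16, chr19:5487994-5488045, minus strand: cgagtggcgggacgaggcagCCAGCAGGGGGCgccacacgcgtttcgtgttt
Kif19a, exon 18 of 20, chr11:114789208-114789259, minus strand: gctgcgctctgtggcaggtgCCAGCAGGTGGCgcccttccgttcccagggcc
Pgls encodes an enzyme of the pentose phosphate pathway and Mus81 a subunit of a DNA repair endonuclease.

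The RUNX string was likewise less frequent in exons. It was present in 133 of 569 Phase 1 RUNX1 exon peaks (23.4%, 20.1% to 27.0%) and in 32.0% of 27149 others with sequence (odds ratio 0.65, exact test, adjusted p = 2.12e-05), beside 25.4% over the whole list. The flanks held it in 4.92% and 5.56% of windows. Matched on GC content the odds ratio was 0.97 (Mantel-Haenszel chi-square test, adjusted p = 0.84), and without peaks under 1 kb from a start it was 0.84 (exact test, adjusted p = 0.14). Of 151 strings in these exon peaks 128 were wholly coding, 44 along the coding strand and 84 against it, a split given as a description.

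The exon peaks leading the lists were often the same sites under several factors. Gdf15, which encodes a stress-induced secreted factor, led the exon peaks of both CTCF lists with the peak in its last exon (chr8:70629712-70630112 in LP), scoring 664.1 in LP and 1019.3 in Phase 1. Cacna1a, a calcium channel gene, followed with a peak in exon 47 of 47 (chr8:84639275-84639675, scores 506.2 and 740.5), and Klf1, the gene of an erythroid transcription factor, was the third in both (chr8:84903020-84903420, 435.1 and 634.0). RUNX1, Med12 and p300 were also listed at these 3 exons in both stages.

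Outside CTCF, Abi3 (exon 4 of 8, chr11:95834217-95834557) led the exon peaks of the LP RUNX1 list at 314.1 and of the LP p300 list at 695.6 and overlapped peaks of RUNX1, Med12 and p300 in Phase 1, some of them annotated as intron. Abi3 encodes an adaptor of actin regulation. Patz1, the gene of a zinc-finger repressor active in T-cell development, led the exon peaks of the Phase 1 RUNX1 list at 329.7 and of the Phase 1 p300 list at 712.2 with a peak in exon 1 of 5 (chr11:3291626-3291954). The peak held the RUNX string. There Med12 was listed in Phase 1 (326.0) and not in LP, while RUNX1 and p300 were listed in both stages and CTCF in neither. Ncam2 (exon 4 of 16, chr16:81437533-81437861), a neural adhesion gene, and Rapgef3 (exon 19 of 27, chr15:97750679-97751007), which encodes a cAMP-responsive exchange factor, had RUNX1, Med12 and p300 in both stages without CTCF. So had N4bp3 and Kif5a, both named among the leading p300 exons, and Tbc1d22a, the third among LP p300 exon peaks at 583.2. At Kif5a and Tbc1d22a most of the overlapping peaks were annotated as intron. Angptl6 (exon 2 of 6, chr9:20878091-20878431), which encodes a secreted angiopoietin-like protein, had all 4 factors in both stages. Snap47 (exon 4 of 5, chr11:59421477-59421817) had RUNX1 and Med12 in both stages and p300 in LP alone, with an LP p300 score of 290.8 that was the highest among LP-specific p300 exon peaks.

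Exon peaks annotated as such in all 8 lists formed 29 sites. By mean score rank the leading ones were at Angptl6, Cacna1a and Upf3a, a gene of nonsense-mediated decay. At Upf3a the site joined RUNX1, Med12 and p300 peaks over exon 1 (chr8:13785577-13785917 for LP RUNX1) to CTCF peaks over exon 2 (chr8:13785971-13786371 in LP), and of those peaks only Phase 1 RUNX1 overlapped CTCF directly.

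Stage-specific peaks of the other 3 factors named further exons. The leading LP-specific CTCF exon peaks were in Rimbp3 (score 193.7), Nxn (102.9) and Ccdc106 (97.7), and the Phase 1-specific ones in Swap70 (218.4), Trpm4 (70.6) and Dapk3 (63.5). At Swap70, which encodes a B-cell signalling adaptor, the CTCF peak was in exon 1, 160 bp from the start, and it overlapped peaks of the other 3 factors in both stages that were annotated as promoter. The leading LP-specific Med12 exon peaks were in Ddx51 (121.1), Rem2 (108.7) and Aars2 (104.3). Ddx51, which encodes an RNA helicase, also had one of the leading LP-specific p300 exon peaks (185.7), beside Snap47 and Crlf2, with RUNX1 listed there in both stages. Phase 1-specific Med12 led in Patz1, H1f2 (136.5) and Olfr420 (108.6), an olfactory receptor gene, and Phase 1-specific p300 in Crlf2, Slc36a3 (160.0) and Il17rc (139.1), an interleukin-17 receptor gene.

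Exon peaks were spread over 2072 genes, of which 1879 had 1 merged site and 171 had 2. Plxnd1, a semaphorin receptor gene, Rnf213, a ubiquitin ligase gene, and Zan had 5 sites each, and Ccdc162, Jmjd1c and Sptbn4 had 4. Several of these have many exons, Zan 88 and Rnf213 68, and so offer more room for a peak. In Rnf213, RUNX1, Med12 and p300 were listed in both stages at 1 place in exon 26 (chr11:119436494-119436834) and CTCF in both stages nearby in the same exon, with no overlap (chr11:119435896-119436296).

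Among 24 genes of the Notch pathway, 10 (41.7%) had an exon site of any factor, beside 2072 of 21896 protein-coding genes (9.46%). The list was chosen with earlier results of these data known, and its share was not tested. Some members have many exons, Notch2 34 and Notch3 33, and so offer more room for a peak. Dll4, Maml1 and Jag2 counted only through peaks that scored 21.9 or less. At 5 of the 10 genes the factor was CTCF in both stages with none of the other 3 in the 8 lists. This was so at Hes1 (chr16:30066969-30067369), Hey1 (chr3:8664483-8664883) and Hes5 (chr4:154961254-154961654), which encode transcriptional repressors induced by Notch, at Lfng (chr5:140607435-140607835), the enzyme that adds sugars to Notch receptors, and at the receptor gene Notch2 (chr3:98099262-98099662). Hey1 held the exact CTCF consensus, and a Phase 1 Med12 peak was listed there in the sgCbfb cultures (18.1).

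Notch3 had 2 sites. At exon 24 of 33 (chr17:32143113-32143453) RUNX1 scored 53.7, Med12 52.0 and p300 50.7 in LP, and none of the 3 had a peak in the Phase 1 list, while CTCF was listed in both stages (375.2 in LP, place 303 of its list, and 311.5 in Phase 1). Med12 was listed at this exon in the Phase 1 lists of the guide RNA cultures (21.7 in sgCont and 36.4 in sgCbfb), so its absence from the main Phase 1 list was not repeated there. At the last exon (chr17:32122227-32122567) RUNX1, Med12 and p300 were listed in both stages without CTCF. The last exon of Notch4 (chr17:34587329-34587669), a further receptor gene, had the same combination, with RUNX1 scores of 129.4 in LP and 112.9 in Phase 1. Near the threshold were Dll4 (Phase 1 Med12 21.9 and p300 21.7), Maml1 (Phase 1 p300 16.9) and Jag2 (Phase 1 p300 16.0). The Jag2 peak overlapped CTCF (76.1 in LP and 72.2 in Phase 1) and RUNX1 peaks annotated outside exons. Dll4 and Jag2 encode ligands and Maml1 a coactivator of Notch.

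Other lists had fewer members with exon sites. In the T-lineage list 3 of 31 genes had one: Cd5, a receptor that tempers T-cell receptor signals, had LP p300 (41.8) over RUNX1 peaks of both stages annotated outside exons, Lcp2, an adaptor of the T-cell receptor, had CTCF in both stages, and Zbtb7b, the regulator of CD4 T cells, had 2 sites with RUNX1 in both stages, of which the one in its last exon (chr3:89379705-89380045) held the RUNX string. In the progenitor and myeloid list 5 of 35 had one: Spi1, a myeloid and early T-cell factor, had CTCF in both stages in its last exon (chr2:91115017-91115417), Cebpb had an LP RUNX1 peak in its single exon (chr2:167688861-167689201) that overlapped peaks of all 4 factors annotated as promoter, Tal1 had LP CTCF at 22.0, Runx2 had RUNX1 in both stages, and Mpo had Med12 in both stages and p300 in LP. None of 13 B-lineage genes had an exon peak. Of 22 genes for CTCF, cohesin, Mediator and p300 subunits 3 had one. Med12 itself (exon 26 of 45, chrX:101285505-101285905) and Med14 had CTCF in both stages with the exact consensus, and Med24 had CTCF at exon 6 in both stages and Phase 1-specific RUNX1 (63.3) and Med12 (50.3) at exon 12.

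Gene families with long or clustered exons had exon sites at shares near or under that of all genes. Of 57 clustered protocadherin genes 5 had a site (8.77%), of 468 zinc finger genes 35 (7.48%), of 66 replication-dependent histone genes 6 (9.09%), of 39 Hox genes 3 (7.69%) and of 1110 olfactory receptor genes 12 (1.08%), beside the 9.46% of all protein-coding genes. At the protocadherins, where CTCF is known to govern promoter choice, there were 4 exon peaks in each CTCF list, all shared between the stages. The replication-dependent histones, the olfactory receptors and the protocadherins are families of similar sequences, in which reads with several positions can shift a peak from 1 copy to another.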

How the data were processed

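Per the labels the series held 38 samples in 19 groups, of which 16 ChIP samples entered the 8 lists described here. The authors aligned reads to mm10 with Bowtie 1.1.1 allowing several positions per read, called peaks with HOMER and deposited, per group, the peaks reproducible between replicates. The peak score in each list is the authors' deposited score, whose scale was not given in the sources used here. Read depth per sample was not used here, and its effect on list length is unknown. The labels and the methods name different sequencers and read lengths.

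Exon membership, overlap (1 bp or more, any annotation), strings and base composition were computed with Python 3, pandas, numpy, scipy and pysam from the peak lists, the GRCm38.p6 genome (mm10), RefSeq symbols and GENCODE M21. Shares were compared by two-sided Fisher's exact tests, with Benjamini-Hochberg adjustment over the 16 planned tests, the ratio of odds ratios by Woolf's chi-square test and matched alternatives by Mantel-Haenszel chi-square tests. The balance values, added later, were adjusted apart from these and serve as a description only. The code was tested on simulated data. Named genes were the 3 highest-scored exon peaks of each list, the 5 highest-scored stage-specific RUNX1 exon peaks with and without CTCF, the 3 highest-scored stage-specific peaks of each other factor, the 5 genes with the most sites and ties, the 3 best-ranked sites with all factors, and members of fixed gene lists and families. Members and lists were chosen with earlier results of these data known. The windows printed at Ccr10 and Notch3 were chosen after the values were seen.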

Additional observations from a re-analysis of the deposited data

Results flagged for a closer look

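Exon peaks were also present in 7 lists that entered none of the tests above, each flagged because it held more than 3 exon peaks. Some of these lists were named above at single exons, as at Trim11, Hey1 and Notch3. Exon peaks numbered 37 of 1585 (2.33%) in the LP Notch1-IC list, 18 of them at an exon peak of the 8 main lists. The LP RUNX1 lists of cells with guide RNAs held 9 of 874 (1.03%, sgCTCF) and 8 of 975 (0.82%, sgCont). The Phase 1 RUNX1 lists held 17 of 2094 (0.81%, sgMed12) and 19 of 1550 (1.23%, sgCont). The Phase 1 Med12 lists held 269 (1.49%, sgCbfb) and 314 (1.65%, sgCont), of which 229 and 275 were at an exon peak of the main lists. In the 8 main lists the exon share was 1.44% to 2.15%. Of the 593 Phase 1 Med12 exon peaks, 48.1% overlapped the sgCont list and 33.4% the sgCbfb list, against 33.1% and 22.0% of intron and intergenic peaks, and these lists were shorter (19053 and 18099 peaks) than the main one. LP Notch1-IC overlapped 23 of the 600 LP RUNX1 exon peaks (3.83%), against 5.90% of intron and intergenic ones.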

How the results depend on the processing

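Of 168 values recomputed under alternatives, 146 kept their direction and their side of the threshold. Both counts include the balance of stage-specific peaks, a description, with 9 alternatives for each factor. Of these, CTCF kept 8, and RUNX1, Med12 and p300 kept all 9. The contrast of CTCF at LP-specific and Phase 1-specific RUNX1 exon peaks did so in all 7 alternatives run for it. Odds ratios that changed are given by setting. With a minimum score of 30, CTCF at LP-specific RUNX1 peaks in exons against the rest (2.69), the difference of that contrast (3.47) and p300 at stage-specific RUNX1 exon peaks (3.23) passed the test, and sharing of LP RUNX1 (0.93) and LP Med12 (0.79) did not. With lists of equal length, CTCF at LP-specific RUNX1 peaks (1.5) and p300 (2.67) passed, LP RUNX1 sharing (0.88) did not, and Med12 turned direction (1.22). Against introns alone, CTCF at LP-specific RUNX1 peaks passed (1.67), and with GENCODE exons Med12 did (0.57). Without peaks under 1 kb from a start, CTCF at Phase 1-specific RUNX1 peaks turned direction (1.01), and the CTCF (0.80) and RUNX strings (0.84) did not pass. With centres within 100 bp, CTCF at Phase 1-specific peaks (1.76), the difference of the contrast (0.66) and Phase 1 CTCF sharing (0.93) turned direction, all without passing. Matching on score turned Phase 1 CTCF sharing (0.91). Matching on GC content, added after the data had been seen, turned it as well (0.92), the RUNX string no longer passed (0.97), and the CTCF balance, a description, went to 1.31. Matched on distance, the CTCF string did not pass (0.83). The cause was not tested.

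No paired analysis was possible because each list combines both replicates of its group, and leaving out a replicate was not possible for the same reason. Differences between cultures therefore do not enter any interval, the lists differ in length, the score's scale is not known, and a peak under the authors’ threshold in 1 stage counts as stage-specific.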
